A study of Homo sapiens with 60 samples.

Results

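The genes described here are 8 enzymes that make fatty acids or the acetyl-CoA that feeds them, ACSS2, ACLY, ACACA, FASN, SCD, ELOVL6, FADS1 and FADS2. They were taken by symbol from the 60675 genes of the count table, and all 8 were found. They were followed in HT29, a human colorectal adenocarcinoma cell line from ATCC, after 24 h with a herbal extract or with vehicle. Of the 8 extracts, Sayeok-tang and Bojungikgi-tang are multi-herb formulas extracted in hot water, with 3 and 2 libraries at each dose in that order. The others are 70% ethanol extracts of single herbs. Scutellariae Radix (skullcap root), Pinelliae Tuber, fresh ginger (Zingiberis Rhizoma Recens) and dried ginger (Zingiberis Rhizoma) had 3 libraries at each dose, while Coptidis Rhizoma and Zizyphi Fructus (jujube fruit) had 1. High, medium and low doses were 500, 100 and 20 µg/mL, except for Coptidis Rhizoma at 320, 64 and 12.8 µg/mL. Vehicle (n = 3) was 0.1% DMSO by the sample labels and 2% by the series text, which also says that samples poor in RNA were dropped by the authors. No label says that replicates were grown apart, and the p-values therefore cover the spread among these libraries only, which may be technical. All cells were of 1 line, and no animal or other genotype was part of the design.

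Cells build fatty acids from cytosolic acetyl-CoA. ATP citrate lyase (ACLY) makes it from citrate that mitochondria export, and acetyl-CoA synthetase 2 (ACSS2) makes it from acetate. Acetyl-CoA carboxylase (ACACA) turns acetyl-CoA into malonyl-CoA, fatty acid synthase (FASN) joins these units into palmitate, ELOVL6 lengthens palmitate, stearoyl-CoA desaturase (SCD) puts the first double bond into the product, and FADS1 and FADS2 desaturate polyunsaturated fatty acids. The genes are known targets of the SREBP transcription factors, which are released from the endoplasmic reticulum when sterols are low, and which share promoters with the factor NF-Y at CCAAT boxes.

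The promoters shown are those of the 4 enzymes that rose with Scutellariae Radix high dose against vehicle in the results that follow, ACSS2, ACLY, SCD and ELOVL6. They were chosen by that result, so they cannot show whether a CCAAT box goes with a change. ACACA and FADS2, which were not called in that comparison, also have windows with CCAAT. RefSeq (GRCh38.p14) gave windows from 250 bases before to 50 after a transcription start for 7 of the 8 genes, 12 windows in all. Capitals mark CCAAT on the strand shown or on the other strand, where it reads ATTGG, and the downstream window of ACSS2 and that of ELOVL6 hold none. ACSS2 has a window at chr20:34874739-34875038 and one at chr20:34876362-34876661, both on the plus strand, and SCD has one at chr10:100346983-100347282 on the plus strand. On the minus strand, that of ELOVL6 is at chr4:110198566-110198865, and ACLY has a window at chr17:41918902-41919201, which is shown, and one at chr17:41918973-41919272, which overlaps it and is not.
ACSS2 upstream start: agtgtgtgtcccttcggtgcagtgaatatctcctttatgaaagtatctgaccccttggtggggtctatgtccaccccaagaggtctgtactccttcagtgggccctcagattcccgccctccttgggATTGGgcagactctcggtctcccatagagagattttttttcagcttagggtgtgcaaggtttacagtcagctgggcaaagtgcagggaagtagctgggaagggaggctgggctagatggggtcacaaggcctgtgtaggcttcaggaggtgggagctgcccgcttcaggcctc
ACSS2 downstream start: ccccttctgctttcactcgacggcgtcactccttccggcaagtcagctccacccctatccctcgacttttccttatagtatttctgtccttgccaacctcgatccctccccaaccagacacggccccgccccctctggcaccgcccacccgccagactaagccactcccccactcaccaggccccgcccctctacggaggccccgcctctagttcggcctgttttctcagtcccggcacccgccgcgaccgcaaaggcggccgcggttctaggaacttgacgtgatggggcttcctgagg
ACLY: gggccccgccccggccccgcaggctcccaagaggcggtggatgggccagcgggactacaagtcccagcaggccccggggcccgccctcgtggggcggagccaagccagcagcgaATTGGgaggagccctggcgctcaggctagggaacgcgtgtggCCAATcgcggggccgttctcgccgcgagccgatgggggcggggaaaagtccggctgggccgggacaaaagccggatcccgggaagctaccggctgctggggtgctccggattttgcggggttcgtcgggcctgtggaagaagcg
SCD: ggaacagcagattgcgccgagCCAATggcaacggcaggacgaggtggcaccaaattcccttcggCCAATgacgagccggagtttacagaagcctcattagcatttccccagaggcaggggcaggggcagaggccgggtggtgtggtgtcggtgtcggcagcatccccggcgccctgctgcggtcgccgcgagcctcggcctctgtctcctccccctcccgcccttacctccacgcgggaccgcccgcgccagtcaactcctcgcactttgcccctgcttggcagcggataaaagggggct
ELOVL6: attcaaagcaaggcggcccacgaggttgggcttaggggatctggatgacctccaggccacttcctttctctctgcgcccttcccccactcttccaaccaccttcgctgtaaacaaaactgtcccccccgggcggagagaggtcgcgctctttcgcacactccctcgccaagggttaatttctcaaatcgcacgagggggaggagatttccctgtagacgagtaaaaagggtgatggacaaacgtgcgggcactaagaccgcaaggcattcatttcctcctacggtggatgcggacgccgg
CCAAT was in 7 of the 12 windows, belonging to 5 of the 7 genes and including both overlapping windows of ACLY, and in 34.6% of 35116 promoters of this length. The Sp1 box GGGCGG, searched on both strands, was in 10 of the 12 windows, with at least 1 in each of the 7 genes, and in 45.0% of all promoters. The sterol regulatory element TCACNCCAC, also searched on both strands, was in none of the 12 windows and in 1.13% of all promoters. These matches describe the letters of the windows and are not tests of binding.

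On GRCh38 (GENCODE 29), ACSS2 (ENSG00000131069) spans chr20:34872146-34927962 on the plus strand and ACLY (ENSG00000131473) chr17:41866908-41930542 on the minus strand. ACACA (ENSG00000278540) lies at chr17:37084988-37406818 and FASN (ENSG00000169710) at chr17:82078333-82098332, both on the minus strand. SCD (ENSG00000099194) lies at chr10:100347124-100364834 on the plus strand and ELOVL6 (ENSG00000170522) at chr4:110045846-110199199 on the minus strand. FADS1 (ENSG00000149485) is at chr11:61799625-61829318 on the minus strand and overlaps FADS2 (ENSG00000134824), at chr11:61792980-61867354 on the plus strand. Because no source used here gives the strand setting of the counting, reads of FADS1 and FADS2, and of ACSS2 and GGT7 on its opposite strand, may have been shared. FEN1, a gene with a median of 4014 counts, also overlaps FADS2, on its own strand. GGT7 had a median of 75 counts per library, against 551 for ACSS2.

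Libraries held between 18016461 and 35819919 counts, so that 1 CPM, the unit of the scaled levels, stood for 18 to 36 counts. The 12 colon epithelial markers looked up were all at or above 1 CPM on average in vehicle, as were 1 of 6 hepatocyte markers (SERPINA1, 361 CPM), 0 of 4 adipocyte, 1 of 6 fibroblast, 2 of 5 leukocyte (LYZ, 1760 CPM, and CD14, 3.91 CPM) and 1 of 3 endothelial markers. ALB and APOB of hepatocytes, ADIPOQ and LEP of adipocytes, COL1A2 and PDGFRA of fibroblasts, CD3E of leukocytes and CDH5 of endothelium had no count in vehicle. Over the 60 libraries the summed level ranged between 8983 and 14370 CPM for the epithelial list, 258 and 499 CPM for the hepatocyte list and 1062 and 2307 CPM for the leukocyte list, and it was at most 3.37 CPM for each of the others. The part of these markers in the results was not tested. In 3 of the 54 libraries of the test, the share of ribosomal protein or mitochondrial counts stood apart. These are vehicle replicate 1 (7.20% ribosomal protein), Scutellariae Radix low-dose replicate 3 (9.35%) and Pinelliae Tuber high-dose replicate 2 (14.31% mitochondrial), against medians of 5.62% and 7.27% over the 60 libraries. Each extract carries a code set in the labels that vehicle does not, so an extract's effect and its code set cannot be told apart in comparisons with vehicle. Comparisons between doses stay within a code set.

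Levels below are CPM with TMM scaling, and changes are log2 fold changes ± SE of edgeR's quasi-likelihood test over 16763 genes and 54 libraries, with p-values adjusted over all genes (Benjamini-Hochberg). A gene rose or fell where the adjusted p was under 0.05. Per kilobase of exon, vehicle cells had the highest level for SCD, 313 ± 30.7 CPM per kb (SD, n = 3), and then for FASN, 111 ± 10.6, ACLY, 73.5 ± 4.66, and ACACA, 39.8 ± 5.54. ELOVL6 stood at 10.4 ± 0.674 and ACSS2 at 4.16 ± 0.0918 CPM per kb. FADS1 was at 0.556 ± 0.0581 and FADS2 at 0.0267 ± 0.00793 CPM per kb. In bulk RNA of this kind, fewer cells with a transcript and less of it per cell cannot be told apart.

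ACSS2, the acetate-using enzyme, varied most among the 8 genes. Its mean level was 5.02-fold higher in Scutellariae Radix high dose, the highest of the 19 replicated groups, than in Pinelliae Tuber high dose, the lowest. The same ratio of highest to lowest group mean was 1.62 for SCD, 1.54 for FADS1, 1.36 for ACACA, 1.35 for FASN, 1.34 for ACLY and 1.25 for ELOVL6. FADS2 had a ratio of 2.14, at 1 to 12 counts per library. ACSS2 was called in 16 of the 42 comparisons made between groups, and 13 of these calls held with each library left out in turn. SCD was called in 10, ACLY in 5, ELOVL6 in 4, FADS1 in 3, and ACACA and FASN in 1 each.

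ACSS2 rose with the high dose of Scutellariae Radix, against vehicle and against both lower doses, and with the medium dose against vehicle only. It stood at 26.3, 26.9 and 26.1 CPM at the low dose, 28.5, 29.2 and 28.1 CPM at the medium dose and 59.4, 57.6 and 53.0 CPM at the high dose of Scutellariae Radix, with 22.2, 22.1 and 23.0 CPM in vehicle. The libraries of these 4 groups did not overlap, and the step between the medium and the high dose was the widest. ACSS2 differed by 1.10 ± 0.06 between high and low dose (adjusted p = 2.0e-17) and between high and medium dose by 0.99 ± 0.06 (adjusted p = 2.6e-15). Medium against low dose (0.11 ± 0.06, adjusted p = 0.32) did not pass the test. Against vehicle the change was 1.34 ± 0.06 at the high dose (adjusted p = 2.5e-20) and 0.35 ± 0.06 at the medium dose (adjusted p = 0.00022), while the low dose gave 0.24 ± 0.07 (adjusted p = 0.084, and 0.25 with adjusted p = 0.0314 without low-dose replicate 3).

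ACSS2 fell with the high and the medium dose of Pinelliae Tuber. Its level was 24.3, 21.8 and 22.5 CPM at the low dose, 15.4, 13.8 and 15.3 CPM at the medium dose and 10.6, 13.1 and 10.2 CPM at the high dose of Pinelliae Tuber. Every library of the medium and high dose lay below every vehicle library, and the low dose overlapped vehicle. The high dose gave -1.02 ± 0.07 against the low dose (adjusted p = 7.1e-14), medium against low dose -0.62 ± 0.07 (adjusted p = 7.3e-08) and high against medium dose -0.39 ± 0.07 (adjusted p = 0.0043). Against vehicle ACSS2 fell by 0.99 on the log2 scale at the high dose (SE 0.07, adjusted p = 9.3e-14) and by 0.60 at the medium dose (SE 0.07, adjusted p = 1.3e-07). The high-dose library with 13.1 CPM is the one with 14.31% mitochondrial counts, and without it high against low dose was -1.15. When the fit held only the libraries compared, high against low dose kept its size (-1.02) but had an adjusted p of 0.549, high against medium dose (-0.39) one of 0.792 and high against vehicle (-0.99) one of 0.178.

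At the high dose, Scutellariae Radix exceeded Pinelliae Tuber in ACSS2 by 2.33 ± 0.07 (adjusted p = 5.0e-28). The change between low and high dose differed between the 2 extracts by 2.12 ± 0.09 (adjusted p = 1.1e-20), and by 2.22 ± 0.09 without the 3 libraries that stand apart.

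Fresh ginger, dried ginger and Bojungikgi-tang also gave lower ACSS2 at the high than at the low dose, by less than Pinelliae Tuber. Fresh ginger had 25.3, 23.2 and 25.5 CPM at the low, 24.4, 22.8 and 24.1 CPM at the medium and 19.2, 17.1 and 18.4 CPM at the high dose. Its high-dose libraries lay below all those of the other doses and of vehicle. ACSS2 was at -0.44 ± 0.07 with high against low dose (adjusted p = 0.00010) and with high against medium dose at -0.38 ± 0.07 (adjusted p = 0.0012), with -0.30 ± 0.07 against vehicle (adjusted p = 0.0049). Without fresh ginger high-dose replicate 2 the call against the medium dose ended at -0.34 (adjusted p = 0.0557) and that against vehicle at -0.25 (adjusted p = 0.0542).

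Dried ginger had 26.6, 25.6 and 26.2 CPM of ACSS2 at the low, 24.2, 24.1 and 22.6 CPM at the medium and 20.9, 20.5 and 20.8 CPM at the high dose. The 3 doses did not overlap, and vehicle lay above the high dose and overlapped the medium dose. ACSS2 fell with high against low dose of dried ginger (-0.33 ± 0.07, adjusted p = 0.00057), and high dose against vehicle (-0.11 ± 0.07, adjusted p = 0.27) did not pass. Fresh against dried ginger at the high dose gave -0.19 ± 0.07 (adjusted p = 0.19), and passed without the 3 libraries that stand apart (-0.19 ± 0.06, adjusted p = 0.0452).

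Bojungikgi-tang had 23.3 and 24.4 CPM of ACSS2 at the low, 20.9 and 22.0 CPM at the medium and 17.98 and 18.7 CPM at the high dose. The doses did not overlap, and high against low dose was -0.38 ± 0.08 (adjusted p = 0.043). This call ended with each of the 4 libraries left out, at -0.35 to -0.41. Both high-dose libraries of Bojungikgi-tang lay below all vehicle libraries. High dose against vehicle did not pass in the fit of 54 libraries. It passed with DESeq2 (-0.28, adjusted p = 0.0198) and, by edgeR, without the 3 libraries that stand apart (-0.29, adjusted p = 0.0151). In Sayeok-tang ACSS2 was at 23.5, 24.8 and 25.1 CPM at the low, 24.6, 21.4 and 22.0 CPM at the medium and 21.3, 20.0 and 20.5 CPM at the high dose. High against low dose of Sayeok-tang was -0.25 ± 0.07 and did not pass (adjusted p = 0.11). It was called without the 3 libraries that stand apart, none of which is a Sayeok-tang library (-0.25 ± 0.06, adjusted p = 0.0089).

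**Figure D1:**
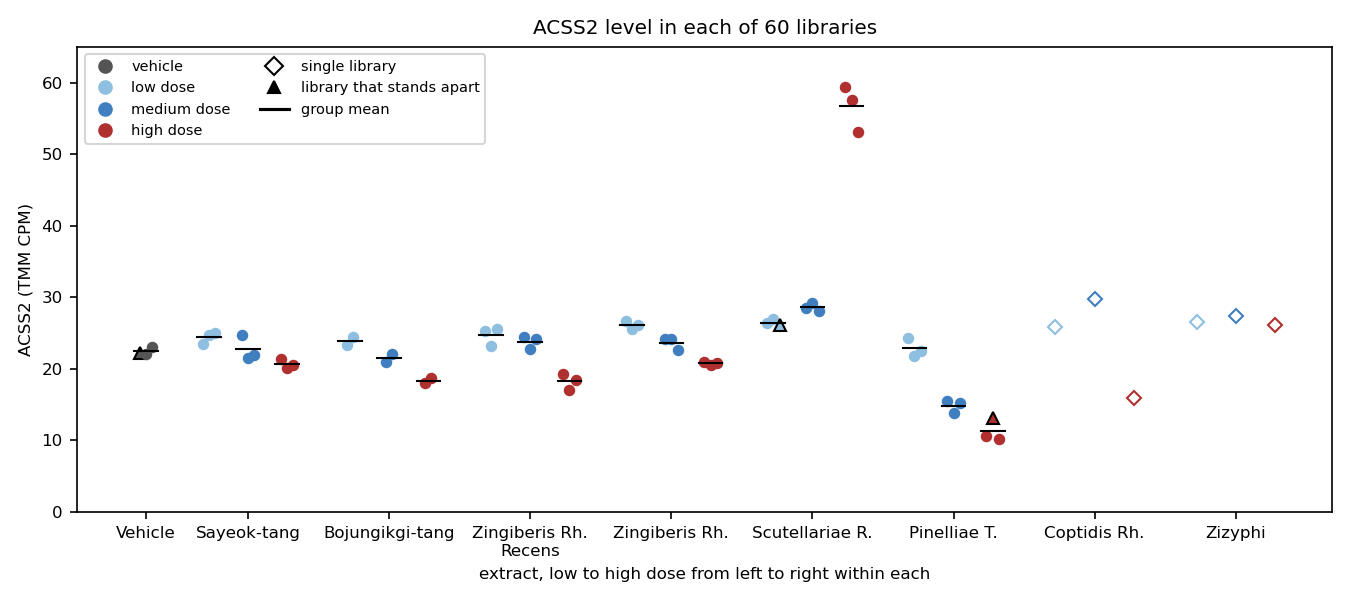
ACSS2 level (TMM CPM) in each of 60 libraries, by extract with doses low to high from left to right and vehicle at the far left. Points are libraries, bars are group means, open diamonds are single libraries and triangles the 3 libraries that stand apart. Scutellariae Radix high dose lies at 53.0 to 59.4 CPM and Pinelliae Tuber high dose at 10.2 to 13.1 CPM, on either side of vehicle at 22.1 to 23.0 CPM.

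Ordered by mean ACSS2, the 19 replicated groups began with Scutellariae Radix high (56.7 ± 3.28 CPM, SD), medium (28.6 ± 0.556) and low dose (26.5 ± 0.411) and dried ginger low dose (26.1 ± 0.528). There followed the low doses of fresh ginger (24.7 ± 1.28), Sayeok-tang (24.4 ± 0.847) and Bojungikgi-tang (23.8 ± 0.741), the medium doses of fresh (23.8 ± 0.837) and dried ginger (23.6 ± 0.895), Pinelliae Tuber low dose (22.9 ± 1.28) and Sayeok-tang medium dose (22.7 ± 1.72). Vehicle came next at 22.4 ± 0.494 CPM. Below it were Bojungikgi-tang medium dose (21.4 ± 0.785), dried ginger (20.8 ± 0.187), Sayeok-tang (20.6 ± 0.661), Bojungikgi-tang (18.3 ± 0.524) and fresh ginger high dose (18.2 ± 1.10), and at the end Pinelliae Tuber medium (14.8 ± 0.906) and high dose (11.3 ± 1.57). Of the 18 pairs of neighbours in this order 11 overlapped in their libraries, among them each of the steps between fresh ginger low dose and vehicle. The 7 steps without overlap included those below Scutellariae Radix high and medium dose and those above Pinelliae Tuber medium and high dose.

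ACLY, the citrate-using counterpart of ACSS2, moved in the same direction with Scutellariae Radix and by less. It stood at 405, 405 and 305 CPM at the low, 419, 414 and 418 CPM at the medium and 500.2, 494 and 489.9 CPM at the high dose of Scutellariae Radix, with 355, 399 and 396 CPM in vehicle. All high-dose libraries lay above all others of these groups. ACLY rose by 0.41 ± 0.06 with high against low dose (adjusted p = 9.8e-07) and by 0.25 ± 0.06 with high against medium dose (adjusted p = 0.0077, but 0.24 with adjusted p = 0.116 without the filter on low counts), and by 0.37 ± 0.06 against vehicle (adjusted p = 7.3e-06). The library at 305 CPM is low-dose replicate 3, and without it high against low dose was 0.29 ± 0.04, still called. In Pinelliae Tuber ACLY was at 397, 390.1 and 407 CPM at the low, 385, 376 and 374 CPM at the medium and 358, 385 and 361 CPM at the high dose. High against low dose was -0.11 ± 0.06 (adjusted p = 0.28), and -0.15 ± 0.03 (adjusted p = 0.0060) without the 3 libraries that stand apart. Scutellariae Radix exceeded Pinelliae Tuber in ACLY by 0.43 ± 0.06 at the high dose (adjusted p = 4.3e-07).

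ACACA and FASN, which carry out the committed step and the chain synthesis, were called in 1 comparison each, and neither call held without Scutellariae Radix low-dose replicate 3. FASN stood at 1084, 982 and 564 CPM at the low, 1038, 955 and 943 CPM at the medium and 1225, 1229 and 1106 CPM at the high dose of Scutellariae Radix, with 949, 1147 and 1026 CPM in vehicle. The high dose overlapped vehicle and lay above the other doses. FASN rose with high against low dose (0.44 ± 0.13, adjusted p = 0.011), and without low-dose replicate 3, the library at 564 CPM, the value was 0.20 ± 0.10 (adjusted p = 0.23). Without all 3 libraries that stand apart it was 0.19 ± 0.06 (adjusted p = 0.023). High against medium dose of FASN gave 0.28 ± 0.13 and did not pass (adjusted p = 0.34), but it passed at the same size without those 3 libraries (adjusted p = 0.000496), without the filter on low counts (adjusted p = 0.0357) and, at 0.27, in a fit of only the libraries compared (adjusted p = 0.000323). ACACA had 609.5, 580.3 and 266 CPM at the low, 571, 568 and 591 CPM at the medium and 622, 634 and 616 CPM at the high dose, with 435, 553 and 565 CPM in vehicle. Its change with high against low dose was 0.36 ± 0.13 (adjusted p = 0.039), and 0.07 ± 0.06 (adjusted p = 0.60) without the same library. The ACACA call also ended without any 1 of the 3 high-dose libraries, at 0.35 to 0.37. Neither gene was called against vehicle (ACACA 0.27 ± 0.13, adjusted p = 0.13, FASN 0.19 ± 0.13, adjusted p = 0.30). ACACA did pass there without the 3 libraries that stand apart (0.16 ± 0.04, adjusted p = 0.0030), without the filter on low counts (0.28, adjusted p = 0.00814) and in a fit of only the libraries compared (0.27, adjusted p = 0.0406). Dried ginger high dose had the highest mean of ACACA, with 638, 694 and 646 CPM, above every vehicle library. Its change against vehicle was 0.35 ± 0.13 (adjusted p = 0.066), and it passed without the 3 libraries that stand apart (0.25 ± 0.04, adjusted p = 3.0e-05), without vehicle replicate 3 (0.42, adjusted p = 0.0484), with DESeq2 (0.35, adjusted p = 0.0443), without the filter (0.35, adjusted p = 0.000512) and in a fit of only the libraries compared (0.34, adjusted p = 0.0307). In Pinelliae Tuber high dose FASN stood at 951, 1433 and 922 CPM and ACACA at 605, 545 and 586 CPM. The 1433 CPM, the highest FASN level of the 60 libraries, is that of replicate 2. FASN differed by 0.08 ± 0.13 between high and low dose there (adjusted p = 0.77), or by -0.16 ± 0.06 (adjusted p = 0.38) without the 3 libraries that stand apart. Against vehicle the high dose gave 0.08 ± 0.13 (adjusted p = 0.74), and -0.21 ± 0.07 (adjusted p = 0.0496) without those 3. The 2 extracts' dose changes in FASN differed by 0.36 ± 0.18 (adjusted p = 0.21), by 0.59 (adjusted p = 0.0183) without that replicate, by 0.12 (adjusted p = 0.61) without Scutellariae Radix low-dose replicate 3 and by 0.35 (adjusted p = 0.0063) without all 3. This difference also passed without Scutellariae Radix low-dose replicate 1 (0.54, adjusted p = 0.0356) and without the filter on low counts (0.37, adjusted p = 0.0236).

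**Figure D2:**
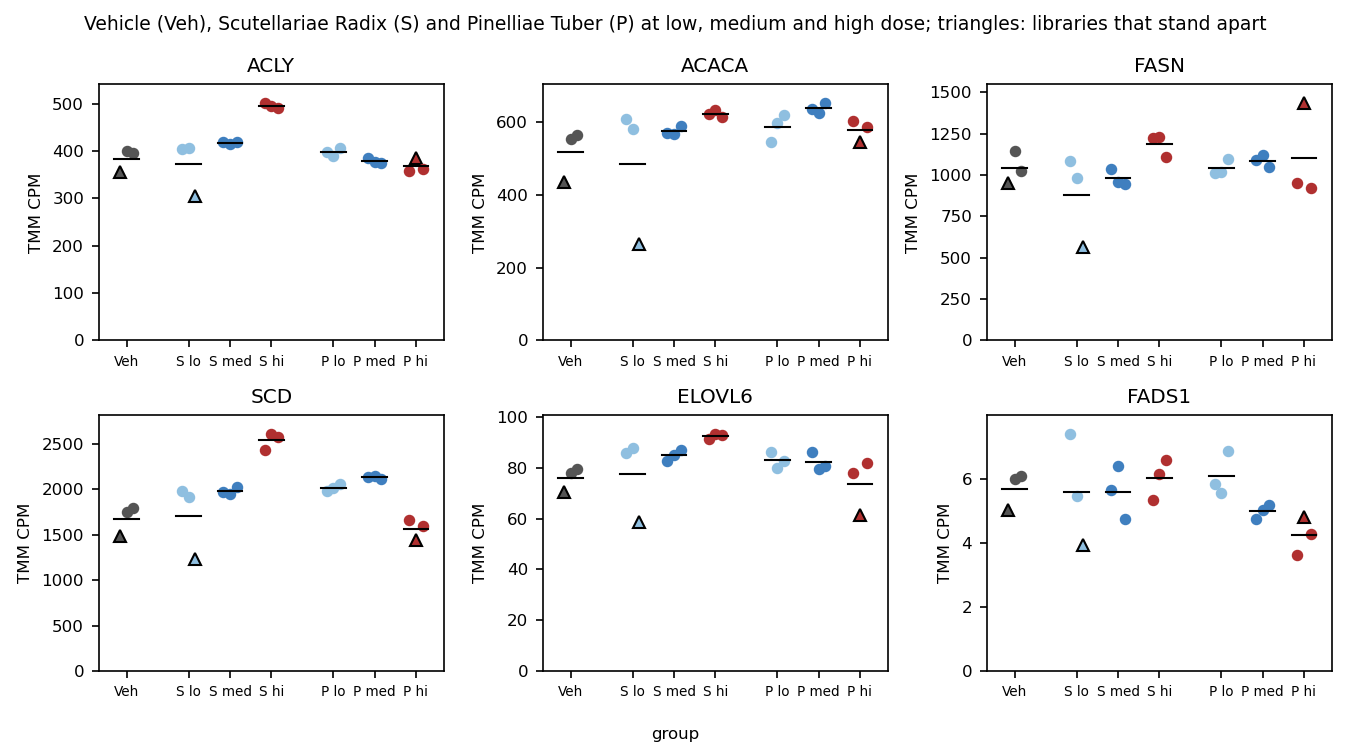
TMM CPM of ACLY, ACACA, FASN, SCD, ELOVL6 and FADS1 in vehicle (Veh) and at the low, medium and high dose of Scutellariae Radix (S) and Pinelliae Tuber (P). Points are libraries, bars group means and triangles the 3 libraries that stand apart. The triangle at the low dose of Scutellariae Radix is lowest of its group in all 6 panels, and ACLY at 489.9 CPM or more and SCD at 2432 CPM or more set its high dose above the other groups.

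SCD, which makes monounsaturated fatty acids, rose with Scutellariae Radix, and with dried ginger against vehicle. It stood at 1979, 1920.0 and 1230.0 CPM at the low, 1972, 1951 and 2023 CPM at the medium and 2432, 2606 and 2573 CPM at the high dose of Scutellariae Radix, with 1488, 1753 and 1789.9 CPM in vehicle. Its high-dose libraries were above all others of these groups. SCD differed by 0.57 ± 0.09 between high and low dose (adjusted p = 2.9e-06), or 0.38 ± 0.06 without low-dose replicate 3, and by 0.36 ± 0.09 between high and medium dose (adjusted p = 0.0083). Against vehicle the high dose gave 0.60 ± 0.09 (adjusted p = 9.7e-07).

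Pinelliae Tuber had 1981, 2011 and 2054 CPM of SCD at the low, 2131, 2145 and 2118 CPM at the medium and 1659, 1444 and 1592 CPM at the high dose. The medium dose was the highest of the 3 and the high dose the lowest, without overlap. SCD fell with high against medium dose of Pinelliae Tuber (-0.45 ± 0.09, adjusted p = 0.0078) and with high against low dose (-0.36 ± 0.09, adjusted p = 0.023), and rose with medium dose against vehicle (0.35 ± 0.09, adjusted p = 0.027). These calls rest on few libraries. The first ended without high-dose replicate 2 (-0.39, adjusted p = 0.105) or medium-dose replicate 2 (-0.44, adjusted p = 0.0543), and the second without high-dose replicate 2 (-0.32, adjusted p = 0.181) or any 1 low-dose library (-0.35 to -0.38). That against vehicle ended without vehicle replicate 1 (0.27, adjusted p = 0.308), vehicle replicate 2 or any 1 medium-dose library (0.34 to 0.38). High against low dose was called (-0.31 ± 0.04) without the 3 libraries that stand apart. In fits of only the libraries compared, the adjusted p was 0.832 for high against low and 0.792 for high against medium dose.

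In dried ginger at the high dose SCD was at 2237, 2451 and 2265 CPM, above fresh ginger at 1834, 1783 and 1751 CPM and above vehicle. Dried ginger exceeded vehicle by 0.47 ± 0.09 (adjusted p = 0.00017), while fresh ginger gave 0.09 ± 0.09 (adjusted p = 0.53). Fresh against dried ginger at the high dose was -0.37 ± 0.09 (adjusted p = 0.0071), and -0.33 (adjusted p = 0.0782) without dried ginger high-dose replicate 2. Within dried ginger, high against low dose of SCD (0.19 ± 0.09, adjusted p = 0.31) did not pass, and it was called without the 3 libraries that stand apart (0.19 ± 0.03, adjusted p = 7.6e-05).

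ELOVL6, the elongase of palmitate, was at 85.7, 87.8 and 58.8 CPM at the low, 82.8, 85.3 and 87.2 CPM at the medium and 91.6, 93.3 and 92.9 CPM at the high dose of Scutellariae Radix, with 70.4, 78.0 and 79.6 CPM in vehicle. The high dose was above all other libraries of these groups. ELOVL6 rose against vehicle by 0.28 ± 0.08 (adjusted p = 0.0099, and 0.24 with adjusted p = 0.0775 without vehicle replicate 1). High against low dose was 0.25 ± 0.08 (adjusted p = 0.024), but 0.09 ± 0.07 (adjusted p = 0.45) without low-dose replicate 3, and the call ended as well without high-dose replicate 2 or 3 (0.25 each). In Pinelliae Tuber ELOVL6 stood at 86.5, 80.0 and 82.9 CPM at the low and 78.2, 61.4 and 81.8 CPM at the high dose, and high against low dose (-0.17 ± 0.08, adjusted p = 0.24) did not pass.

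FADS1, the delta-5 desaturase, had 69 to 213 counts per library. It was at 5.83, 5.56 and 6.86 CPM at the low, 4.73, 5.01 and 5.18 CPM at the medium and 3.62, 4.79 and 4.27 CPM at the high dose of Pinelliae Tuber, with 5.00, 5.98 and 6.08 CPM in vehicle. The high dose lay below vehicle and below the low dose. FADS1 fell with high against low dose (-0.53 ± 0.14, adjusted p = 0.040), a call that ended without any 1 of the low-dose libraries (-0.43 to -0.59) and in a fit of only the libraries compared (adjusted p = 0.832). Against vehicle the high dose gave -0.44 ± 0.14 (adjusted p = 0.054), and -0.54 (adjusted p = 0.0249) without high-dose replicate 2. With Scutellariae Radix FADS1 stood at 7.38, 5.46 and 3.93 CPM at the low and 5.33, 6.14 and 6.59 CPM at the high dose, which overlapped (0.10 ± 0.14, adjusted p = 0.65). At the high dose, Scutellariae Radix exceeded Pinelliae Tuber by 0.52 ± 0.14 (adjusted p = 0.0057). FADS2, the delta-6 desaturase, had 1 to 12 counts per library (median 6), and its 60 libraries ranged between 0.0393 and 0.503 CPM. It passed the filter on low counts, and its changes were too uncertain at this depth to be described.

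**Figure D3:**
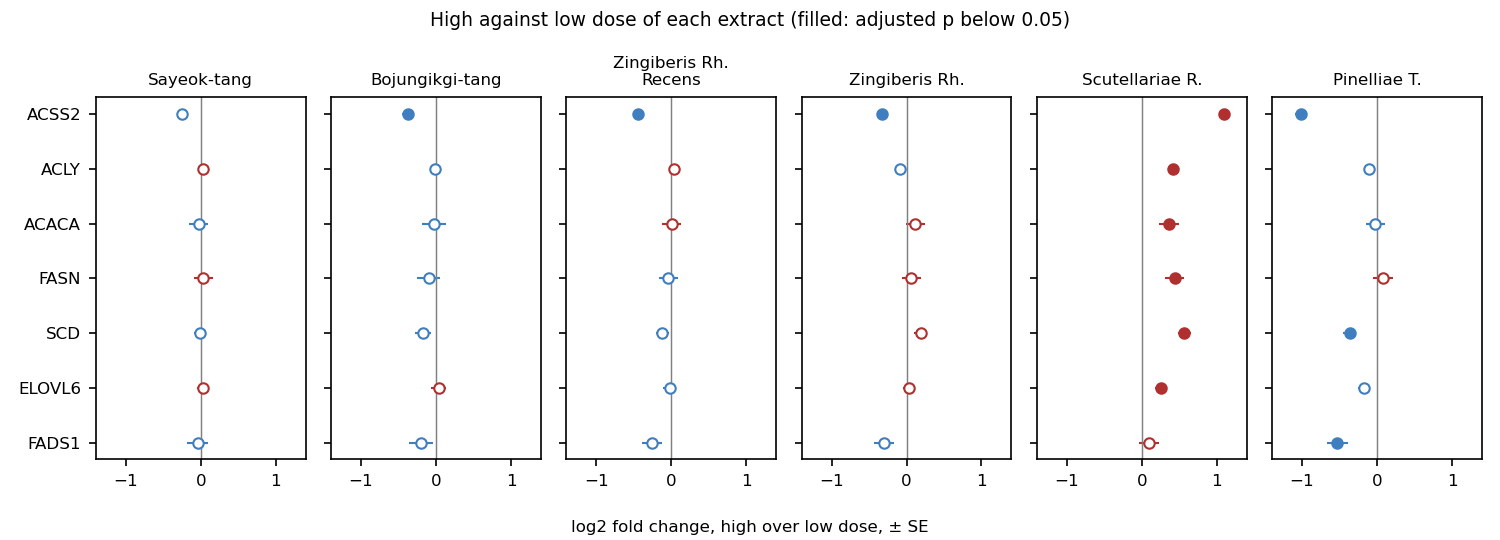
log2 fold change of 7 of the 8 genes, high over low dose, with SE, in each of the 6 replicated extracts. Filled points have an adjusted p under 0.05. ACSS2 lies at 1.10 with Scutellariae Radix and at -1.02 with Pinelliae Tuber, and it is the only filled point with fresh ginger, dried ginger and Bojungikgi-tang.

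Set against all genes, the counts differed between extracts. With high against low dose, 6 of the 8 genes rose in Scutellariae Radix, where 22.5% of the 16763 genes were called (10.7% higher). Without low-dose replicate 3 it was 3 of the 8, ACSS2, ACLY and SCD. Shares of all genes called are given for the fit of all 54 libraries only, and not for fits of fewer. With Pinelliae Tuber 3 of 8 fell, where 1.78% of genes were called (0.626% lower). Fresh ginger had 1 of 8 called against 0.489% of all genes, dried ginger 1 of 8 against 4.34%, and Bojungikgi-tang 1 of 8 against 0.0656%. Sayeok-tang had 0 called by edgeR against 0.382%, with 1 of the 8, and 1004 of the 16763 genes, at an unadjusted p under 0.05. The median change of the 8 genes was 0.39 in Scutellariae Radix, but 0.22 without low-dose replicate 3, and -0.14 in Pinelliae Tuber. Leaving out FADS2, these medians were 0.41, 0.20 and -0.17. The medians over all genes were -0.02 in Scutellariae Radix and 0.0007 in Pinelliae Tuber. Between the 2 extracts, 5 of the 8 genes differed in their dose change, ACSS2 (2.12 ± 0.09), ACLY (0.52 ± 0.08, adjusted p = 1.7e-05), SCD (0.93 ± 0.12, adjusted p = 3.4e-07), ELOVL6 (0.43 ± 0.12, adjusted p = 0.016) and FADS1 (0.63 ± 0.19, adjusted p = 0.032), and all 5 in the same direction, where 9.57% of genes were called (4.24% in that direction). At the high dose the same 5 differed between them, where 22.8% of genes were called. When the fit held only the libraries compared, high against low dose called 1 of the 8 with Scutellariae Radix, ACSS2, ACSS2 of Pinelliae Tuber had an adjusted p of 0.549 as above, and the difference of the dose changes was called for ACSS2 alone.

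At least 1 of the 8 was called in 18 of the 42 comparisons, and 0 in the rest. Of the latter, only Sayeok-tang high against low dose has its share of all genes given here. The comparisons with a call that were not counted above had 1 to 4 genes called. Of the 8, 4 rose with Scutellariae Radix high dose against vehicle, where 23.6% of genes were called (11.5% higher), and ACSS2 alone with its medium dose, where 9.53% were. High against medium dose of Scutellariae Radix called 3, where 3.54% of genes were called. Pinelliae Tuber had 1 called at the high dose against vehicle (5.09% of all genes), 2 at the medium dose (2.11%), 2 with high against medium (0.322%) and 1 with medium against low dose (0.0358%). In the gingers 1 was called with fresh ginger high dose against vehicle (6.36% of all genes), 1 with high against medium dose of fresh ginger (0.167%), 1 with dried ginger high dose against vehicle (13.1%), and 1 between fresh and dried ginger (2.26%). All comparisons with vehicle share its 3 libraries.

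Genes around the pathway were counted for high against low dose. Of all genes, 22.5% were called there with Scutellariae Radix (10.7% higher and 11.7% lower). The share was 1.78% with Pinelliae Tuber (0.626% lower) and 4.34% with dried ginger. By edgeR's test, 5826 of the 16763 genes with Scutellariae Radix and 3325 with Pinelliae Tuber had an unadjusted p under 0.05. All these figures are from the fit of 54 libraries. The lists were chosen with earlier results of these data known, so their counts are not independent of those results. They were not tested in fits of only the libraries compared. In such fits the enzyme calls for high against low dose of Pinelliae Tuber were lost. Of 10 genes known as SREBP-2 targets of cholesterol metabolism, 9 rose with Scutellariae Radix, and FDFT1 (0.16 ± 0.07, adjusted p = 0.10) did not pass. Their median was 0.56. SQLE, squalene epoxidase, changed by 0.67 ± 0.04, LSS, lanosterol synthase, by 0.50 ± 0.05 and DHCR7, the last reductase of the pathway, by 0.62 ± 0.08. With Pinelliae Tuber 8 of the 10 fell, with a median of -0.50. LSS gave -0.59 ± 0.05, SQLE -0.48 ± 0.04, IDI1, an isomerase of the mevalonate pathway, -0.74 ± 0.09 and HMGCS1, HMG-CoA synthase, -0.91 ± 0.11. DHCR7 (-0.21 ± 0.08, adjusted p = 0.13) was among those that did not pass. The difference between the 2 extracts' dose changes was called for all 10, with a median of 0.96. Without the 3 libraries that stand apart, 10 rose with Scutellariae Radix and 9 fell with Pinelliae Tuber.

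Of 7 genes that process or control SREBP, INSIG1, the sterol-dependent retention protein and an SREBP target, rose with Scutellariae Radix (0.68 ± 0.05, adjusted p = 9.6e-14) and fell with Pinelliae Tuber (-0.74 ± 0.05, adjusted p = 1.6e-13). MBTPS2, the site-2 protease (0.24 ± 0.09, adjusted p = 0.041), and SREBF2, which encodes SREBP-2 (0.18 ± 0.07, adjusted p = 0.047), rose with Scutellariae Radix too. SREBF1, which encodes SREBP-1, differed between the extracts with the opposite sign. It rose with Pinelliae Tuber (0.36 ± 0.10, adjusted p = 0.042) and was at -0.22 ± 0.10 (adjusted p = 0.099) with Scutellariae Radix. The difference of the 2 dose changes in SREBF1 was -0.58 ± 0.14 (adjusted p = 0.0038). Without the 3 libraries that stand apart, SREBF1 was at 0.10 ± 0.06 with Pinelliae Tuber (adjusted p = 0.68) and at -0.29 ± 0.06 with Scutellariae Radix (adjusted p = 0.00061), and the difference was -0.38 ± 0.09 (adjusted p = 0.0025). INSIG1 stayed called in both extracts there (0.74 ± 0.04 with Scutellariae Radix and -0.69 ± 0.04 with Pinelliae Tuber), while MBTPS2 and SREBF2 did not with Scutellariae Radix. Of 6 genes of LXR and ChREBP control, RXRB, a retinoid X receptor, fell with Scutellariae Radix (-0.15 ± 0.05, adjusted p = 0.047, or 0.058 without those 3 libraries). This share is below the 22.5% of all genes called in either direction, of which 11.7% were lower. With Pinelliae Tuber edgeR's test called 0 of the 6, with 1 at an unadjusted p under 0.05.

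Of 11 genes that supply acetyl-CoA, citrate or NADPH, 5 rose and 2 fell with Scutellariae Radix, against 10.7% and 11.7% of all genes. ME1, malic enzyme and a source of NADPH, rose by 0.71 ± 0.09, DLAT, a pyruvate dehydrogenase subunit, by 0.24 ± 0.04 and PC, pyruvate carboxylase, by 0.33 ± 0.08. ACSS1, the mitochondrial relative of ACSS2, fell by 0.48 on the log2 scale (SE 0.05, adjusted p = 1.9e-10), opposite to ACSS2, and IDH1, the cytosolic isocitrate dehydrogenase, by 0.26 (SE 0.07, adjusted p = 0.010). Without the 3 libraries that stand apart, 3 of the 11 rose and 2 fell. With Pinelliae Tuber 1 of the 11 fell, IDH1 (-0.41 ± 0.07, adjusted p = 0.00098), and ACSS1 was at 0.07 ± 0.05 (adjusted p = 0.42). Of 8 genes of malonyl-CoA and carboxylase control, 3 fell with Scutellariae Radix, where 11.7% of all genes fell, PRKAG1 (-0.27 ± 0.06) and PRKAB1 (-0.26 ± 0.07), subunits of the kinase AMPK, and MLYCD (-0.34 ± 0.09), which degrades malonyl-CoA. With Pinelliae Tuber edgeR's test called 0 of the 8, with 2 at an unadjusted p under 0.05.

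Of 7 acyl-CoA ligase and carrier genes, 4 rose with Scutellariae Radix, where 10.7% of all genes rose. These were ACSL1 (0.47 ± 0.07), ACSL3 (0.28 ± 0.05), ACSL5 (0.23 ± 0.04) and ACSL4 (0.33 ± 0.09), which activate long-chain fatty acids. ACSL1 fell with Pinelliae Tuber (-0.53 ± 0.07, adjusted p = 8.8e-06), where 0.626% of all genes fell. In dried ginger, where 4.34% of all genes were called in either direction, 4 of the 7 rose as well. They were ACSL5 (0.34 ± 0.04), ACSL3 (0.20 ± 0.05), ACSL1 (0.30 ± 0.07) and the fatty acid binding protein FABP1 (1.04 ± 0.16). There, edgeR called 2 of the 10 SREBP-2 targets lower, LSS (-0.19 ± 0.05) and MVK, mevalonate kinase (-0.25 ± 0.07), and 6 without the 3 libraries that stand apart.

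Of 7 genes of the elongation cycle, ELOVL1 (0.29 ± 0.06), an elongase, and HACD2 (0.21 ± 0.08, lost without the 3 libraries that stand apart), a dehydratase, rose with Scutellariae Radix. This share is near the 22.5% of all genes called in either direction, of which 10.7% were higher. With Pinelliae Tuber edgeR's test called 0 of the 7, with 3 at an unadjusted p under 0.05. Among 5 desaturase partners and paralogs, CYB5B, a cytochrome b5, fell with Pinelliae Tuber (-0.32 ± 0.06, adjusted p = 0.0044). For Scutellariae Radix the test called 0 of the 5, with 0 at an unadjusted p under 0.05. Of 7 genes of mitochondrial fatty acid synthesis, HSD17B8 fell with Scutellariae Radix (-0.42 ± 0.16, adjusted p = 0.045), a call lost without the 3 libraries that stand apart. This share is below the 22.5% of all genes called in either direction, of which 11.7% were lower. With Pinelliae Tuber edgeR's test called 0 of these 7, with 1 at an unadjusted p under 0.05.

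**Figure D4:**
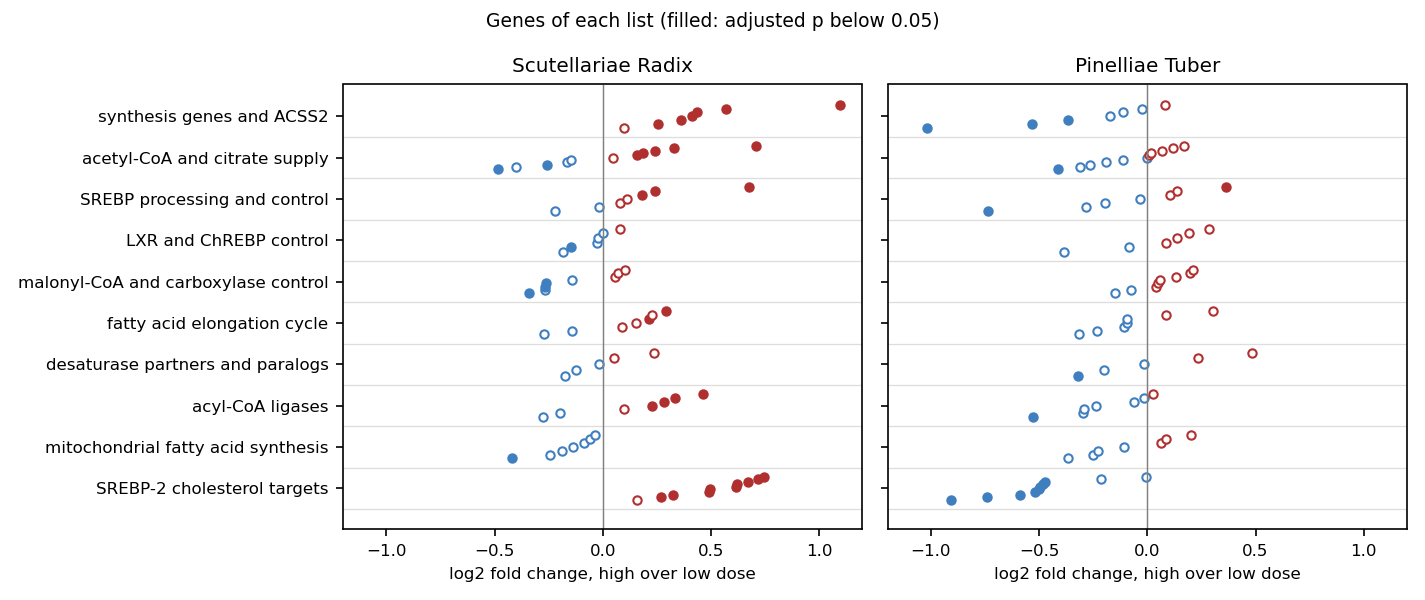
log2 fold change, high over low dose, of each tested gene of 9 lists and of 7 of the 8 enzymes, in Scutellariae Radix (left) and Pinelliae Tuber (right). Filled points have an adjusted p under 0.05. The SREBP-2 targets have a median of 0.56 with Scutellariae Radix and of -0.50 with Pinelliae Tuber.

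Across the 19 replicated groups, the genes whose mean level followed ACSS2 most closely were ALDOC (Pearson r = 0.98), an aldolase, HSD17B7 (0.97) and CYP51A1 (0.97) of cholesterol synthesis, INSIG1 (0.96) and LPIN1 (0.96), a phosphatidate phosphatase. For FASN they were SPTBN1 (0.89), JADE2 (0.87), GPR35 (0.87), RNF43 (0.87) and NDST1 (0.87). Among the 8 enzymes themselves, ACSS2 was closest to ACLY (0.78), and its r with FASN was 0.10. ACACA and FASN had an r of 0.81 and SCD and ELOVL6 one of 0.84. These correlations are over group means of the same libraries, which share scaling and the 3 libraries that stand apart, and are descriptions without a test. A few groups far from the rest may set much of them. For ACSS2 these are Scutellariae Radix high dose (56.7 CPM) and Pinelliae Tuber medium (14.8 CPM) and high dose (11.3 CPM). In Scutellariae Radix low dose, replicate 3 had 0.45 of the ACACA and 0.55 of the FASN of the other replicates. No r was computed without these groups.

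The single libraries of Coptidis Rhizoma and Zizyphi Fructus have no replicate, and their values are log2 ratios to the vehicle mean with 0.5 CPM added. At 12.8 µg/mL of Coptidis Rhizoma ACSS2 had a ratio of 0.20 (25.8 CPM), where the mitochondrial share was 15.22%, and at 64 µg/mL one of 0.40 (29.7 CPM). The 8 genes stayed within 0.5 in size at both of these doses, at which 5.24% and 11.2% of all genes lay beyond it. At 320 µg/mL the ratios were -1.39 for FASN, -1.05 for ACACA, -0.95 for ELOVL6, -0.88 for SCD, -0.76 for ACLY, -0.48 for ACSS2 and -0.30 for FADS1. FASN stood at 398 CPM and ACACA at 250.4 CPM there, the lowest of the 60 libraries for both. In this library 39.5% of all genes were beyond 0.5 in size (20.8% lower), against 5 of the 8 here, all lower, and its mitochondrial share was 3.44%, the lowest of the 60. Whether that share has a part in the ratios was not tested. With Zizyphi Fructus, ACSS2 was at 26.5 CPM at the low, 27.4 CPM at the medium and 26.1 CPM at the high dose, with ratios of 0.23, 0.28 and 0.21. The 8 genes stayed within 0.5 in size in these 3 libraries, in which 3.73%, 3.2% and 5.8% of all genes lay beyond it, low to high dose.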

How the data were processed

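RNA of HT29 cells was read as 100 bp pairs from a directional library kit, per the labels' protocols. The authors deposited expected counts per gene for 60 libraries, in 1 table whose other 210 columns hold samples outside this series and were not used. Per the submitters' processing notes, FastQC 0.11.9, Trim Galore 0.6.5, STAR 2.7.3a, RSEM 1.3.3 and hg38/GRCh38 were used. No source used here names the annotation release or strand setting. Symbols and coordinates came from GENCODE 29, which held 57055 of the 60675 IDs, and 34632 genes had a count.

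Expected counts were rounded to whole numbers. edgeR 4.0.16 (R 4.3.3) fitted the 54 libraries of the 19 replicated groups together, after its expression filter by group, with TMM scaling, a common dispersion trend and a robust quasi-likelihood test (16763 genes, 35 residual degrees of freedom). All 8 enzymes passed the filter. SEs are the size of the log2 fold change over the square root of F. There were 42 comparisons, each with Benjamini-Hochberg adjustment over all genes. The 6 single libraries were set against the vehicle mean as log2 ratios with 0.5 CPM added. Intervals of depth cover counting error only. DESeq2 1.42.0, its size factors, no filter, fits of only the libraries compared, the replicate number as a block and leaving out libraries were alternatives. The 8 genes and the lists were chosen with earlier results of these data known. All 8 are named, and from each list up to 4 genes of smallest p, except 1 that is not reported here. FDFT1 and DHCR7 where they did not pass, and ACSS1 with Pinelliae Tuber, were named after their values were seen. Replicate numbers did not pair libraries (correlations of same-numbered deviations were between -0.34 and 0.20). On simulated counts with 100 genes per fold size among 16479, the Scutellariae Radix high against low comparison recovered 95% of 1.5-fold and 100% of 2-fold changes, with 4.9% of calls on unchanged genes. For the difference of dose changes between Scutellariae Radix and Pinelliae Tuber, 64% of 1.5-fold and 100% of 2-fold changes were recovered. There, 7.3% of calls were on unchanged genes. The simulation held no library that stands apart, so these rates may not carry over to the data.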

Additional observations from a re-analysis of the deposited data

Results flagged for a closer look

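Between Scutellariae Radix and Pinelliae Tuber, 5 of the enzymes were marked because the test of the difference between their low-to-high dose changes passed. ACSS2 differed by 2.12 on the log2 scale, with 1.10 in Scutellariae Radix and -1.02 in Pinelliae Tuber. SCD differed by 0.93 and ACLY by 0.52. ELOVL6 differed by 0.43, and by 0.31 (edgeR, adjusted p = 0.0777) without Pinelliae Tuber high-dose replicate 2, or 0.15 (adjusted p = 0.18) without the 3 libraries that stand apart. FADS1 differed by 0.63, a call that ended without any 1 of 5 libraries (0.46 to 0.62, edgeR).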

How the results depend on the processing

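Of the 40 calls of the 8 enzymes, 25 held whichever library was left out, and no called value changed sign under any alternative run. The counts that follow have no share of all genes called in the same run beside them. A shift in a count therefore cannot be told from a shift over all genes. With DESeq2 the number of the 8 called was 1 for Bojungikgi-tang high and Scutellariae Radix low dose against vehicle, 2 for dried ginger high and low, Pinelliae Tuber high and Scutellariae Radix medium dose against vehicle, and 1 for Sayeok-tang high against low and Scutellariae Radix medium against low dose. DESeq2's size factors gave 1 for dried ginger low dose against vehicle. With no filter on low counts, fresh ginger high dose against vehicle and Bojungikgi-tang high against low dose gave 0, fresh ginger medium, dried ginger medium and dried ginger low dose against vehicle 1, dried ginger high and Scutellariae Radix medium dose against vehicle 2, and Scutellariae Radix medium against low dose 1.

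Fits of only the libraries compared gave 2 for dried ginger high and Scutellariae Radix medium dose against vehicle and 0 for Pinelliae Tuber high dose. High against low dose gave 1 for Sayeok-tang, 2 for Bojungikgi-tang, 3 for dried ginger, 0 for Pinelliae Tuber and 1 for Scutellariae Radix. High against medium dose gave 0 for Pinelliae Tuber and 6 for Scutellariae Radix. At the high dose Sayeok-tang against Bojungikgi-tang gave 1 and Scutellariae Radix against Pinelliae Tuber 3, and the differences of dose changes gave 1 for fresh against dried ginger and 1 for Scutellariae Radix against Pinelliae Tuber. The cause of these shifts was not tested.

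Without the 3 libraries that stand apart, against vehicle 1 was called for Sayeok-tang high, Bojungikgi-tang high and Pinelliae Tuber low dose, 2 for Sayeok-tang low, fresh ginger high, medium and low, dried ginger medium, and Scutellariae Radix medium and low dose, 3 for dried ginger high and low, and 4 for Pinelliae Tuber high dose. Between doses it was 1 for Sayeok-tang and 2 for fresh ginger high against low, and 3 for dried ginger high against low and against medium. Sayeok-tang against Bojungikgi-tang gave 1, fresh against dried ginger 3 and their difference of dose changes 1. ACACA and FASN turned negative in Scutellariae Radix medium against low dose (-0.0492 and -0.0829, against 0.25 and 0.16). Of 54 list counts 44 stayed within 1.5 times.

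With single libraries left out, the counts ranged over 0 to 1 for fresh ginger high against vehicle, high against medium, and fresh against dried ginger, 1 to 2 for dried ginger high, Pinelliae Tuber high and medium and Scutellariae Radix medium against vehicle and Pinelliae Tuber high against medium, 0 to 2 for dried ginger low and Scutellariae Radix low against vehicle, 0 to 0 for Bojungikgi-tang high against low, 1 to 3 for Pinelliae Tuber and 3 to 6 for Scutellariae Radix high against low, and 0 to 3 for Scutellariae Radix medium against low dose. ACSS2 ranged over -0.0459 to 0.0553 in Sayeok-tang medium and -0.0168 to 0.0604 in Pinelliae Tuber low dose against vehicle, ACACA over -0.0476 to 0.4456 and FASN over -0.0812 to 0.3396 in Scutellariae Radix medium against low dose. The replicate block gave 40 calls as well and changed no count of the 8 in 42 comparisons. In 4 of 32 comparisons with 3 pairs every library correlated best with its own number. Depth limited FADS2 (1 to 12 counts).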
